A study of Mus musculus with 18 samples.

Results

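Reg3g, the gene of a secreted antibacterial lectin, was described here across 18 mouse bladder libraries together with 9 other genes of mucosal antimicrobial defence. The 10 members are Reg3g, Reg3b, Lcn2, S100a8, S100a9, Ltf, Slpi, Cd14, Tlr4 and Pigr. They were picked by gene name from the 46333 named genes of the deposited count table, and each name matched 1 row. The list was chosen by a model that already knew how far Reg3g lay above saline in the normal diet group 1 day after cyclophosphamide. For the members that comparison is therefore given as a description, with no test. Other comparisons that use its saline or 1 day libraries share part of what chose the list. Of the 10 members, 9 passed the filter on low counts and were tested among 19323 genes. Reg3b did not pass it.

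Whole urinary bladders came from wild type female BALB/c mice aged 8 weeks, with 3 libraries, labelled as biological replicates, in each of 6 groups. Cyclophosphamide (150 mg/kg, injected into the peritoneum) is a cytotoxic drug, and a breakdown product that collects in urine damages the urothelium, the bladder's inner lining. The groups were cyclophosphamide at 1 day, cyclophosphamide at 3 days and saline at 1 day, each on a normal diet and on a vitamin A-enriched diet begun 1 week before the injection. For the enriched diet the sample labels state 566081 UI of retinyl-acetate per kilogram, whereas the series text names retinyl palmitate. Saline bladders were collected at 1 day only, and a difference between 3 days and saline therefore includes any effect of collection day. Mice were kept 3 to a cage and the cage of each mouse is not given, so cage and group cannot be told apart.

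The members cover several lines of defence at a wet epithelium. Reg3g and Reg3b encode C-type lectins that bind bacterial cell walls, and in gut they are induced in epithelial cells through interleukin-22, STAT3 and Toll-like receptor adaptors. Lcn2 and Ltf encode proteins that keep iron from bacteria, S100a8 and S100a9 the subunits of calprotectin, which withholds zinc and manganese and abounds in neutrophils, and Slpi an inhibitor of neutrophil elastase. Cd14 and Tlr4 encode the receptor parts that recognise bacterial lipopolysaccharide, and Pigr the receptor that carries dimeric immunoglobulin A across epithelium.

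Reg3g and Reg3b lie in 1 cluster of Reg genes on chromosome 6 (GRCm39, Reg3g at 78443252 to 78445857 on the minus strand, Reg3b at 78347868 to 78350449 on the plus strand), with 92802 bases between them that hold Reg1, Reg2, Reg3a and Reg3d. Their upstream sequences are shown because 1 gene of the pair was among the most variable members and the other was almost silent. RefSeq promoters (GRCm38.p6, from C57BL/6J) were matched by symbol for 8 of the 10 members, Tlr4 and Cd14 not being among them. Both strands were searched for the TATA box motif, spelled TATAAA, the STAT motif TTCNNNGAA and the C/EBP motif TTGCNNAA. The AP-1 motif TGANTCA, the kappaB motif and the direct repeat of retinoid receptors were searched too. Capitals mark the matches, none of which overlapped another. Each line gives the 250 bases before the gene's start, 5′ to 3′ on the gene's own strand.
Reg3g (chr6:78468875-78469124, minus): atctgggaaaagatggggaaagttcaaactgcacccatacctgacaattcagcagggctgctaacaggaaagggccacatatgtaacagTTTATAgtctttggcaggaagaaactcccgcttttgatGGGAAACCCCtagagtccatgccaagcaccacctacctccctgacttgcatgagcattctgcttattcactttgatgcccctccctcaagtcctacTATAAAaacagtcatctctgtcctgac
Reg3b (chr6:78370635-78370884, plus): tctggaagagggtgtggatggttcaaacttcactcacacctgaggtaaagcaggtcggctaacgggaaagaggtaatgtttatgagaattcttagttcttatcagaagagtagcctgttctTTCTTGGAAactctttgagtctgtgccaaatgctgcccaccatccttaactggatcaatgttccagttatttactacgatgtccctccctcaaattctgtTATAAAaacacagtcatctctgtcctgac

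The Reg3g and Reg3b windows were identical at 173 of 247 aligned bases (70%). Both carried a TATA box close to the start, and Reg3g held a second one on the other strand. Counted from the start, Reg3g had its kappaB match at -123 to -114 and Reg3b its STAT match at -129 to -121. Among all 32851 windows of that length, 12.4% held the TATA letters, 7.25% the kappaB motif, 7.02% the STAT letters, 9.56% the C/EBP letters, 6.75% the AP-1 letters and 0.426% a retinoid direct repeat. Of the 8 member windows, those of Lcn2, S100a9, Ltf and Slpi held the C/EBP letters and that of S100a8 a TATA box. No member window held the AP-1 letters or a retinoid direct repeat. These matches are a description of letters in a reference strain and not of bound sites.

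Libraries held 19554132 to 34598952 counts. Levels are given as CPM, the count per 1e6 counts of named genes after TMM scaling of library size. All 15 markers of umbrella and intermediate urothelium were tested, and they summed to 9179 to 17950 CPM, so the labelled tissue was seen in its defining genes. Among the libraries, 2 stood apart in ways that touch results below. The third library of the saline vitamin A group had the highest lymphocyte marker sum of all 18 (36.8 CPM, against 2.88 to 16.9 in the others). The third library of the vitamin A group at 1 day after cyclophosphamide had the highest adipocyte marker sum (1706 CPM) and the highest mitochondrial share (3.82% of counts).

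The other members lie on chromosomes 2 (Lcn2, 32274649 to 32277751, and Slpi, 164195990 to 164230861), 3 (S100a8, 90576378 to 90577341, and S100a9, 90599937 to 90603028), 9 (Ltf, 110848360 to 110871834), 18 (Cd14, 36858117 to 36859868), 4 (Tlr4, 66745788 to 66765338) and 1 (Pigr, 130754421 to 130779986). Per gene length (FPKM, deposited by the authors), the most abundant members in saline mice on the normal diet were Slpi, at 18.4 ± 5.79 (SD, n = 3, as for all groups below), and Cd14, at 13.3 ± 1.19. Pigr followed at 3.58 ± 0.28, then Tlr4 at 2.57 ± 0.33 and Reg3g at 0.84 ± 0.58 FPKM. Lcn2, S100a8, S100a9 and Ltf lay between 0.018 and 0.296 FPKM, and Reg3b was listed at 0. At 1 day after cyclophosphamide on the same diet the order was Reg3g (72.5 ± 19.2), Cd14 (29.4 ± 1.43), Slpi (18.9 ± 7.57) and Tlr4 (2.49 ± 0.17), with the other members under 2. The neutrophil-associated members Lcn2, S100a8, S100a9 and Ltf had only 413, 266, 544 and 113 counts over the 18 libraries, so their values rest on few reads. Bulk RNA cannot tell fewer cells of a type from less RNA per cell.

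**Figure D1:**
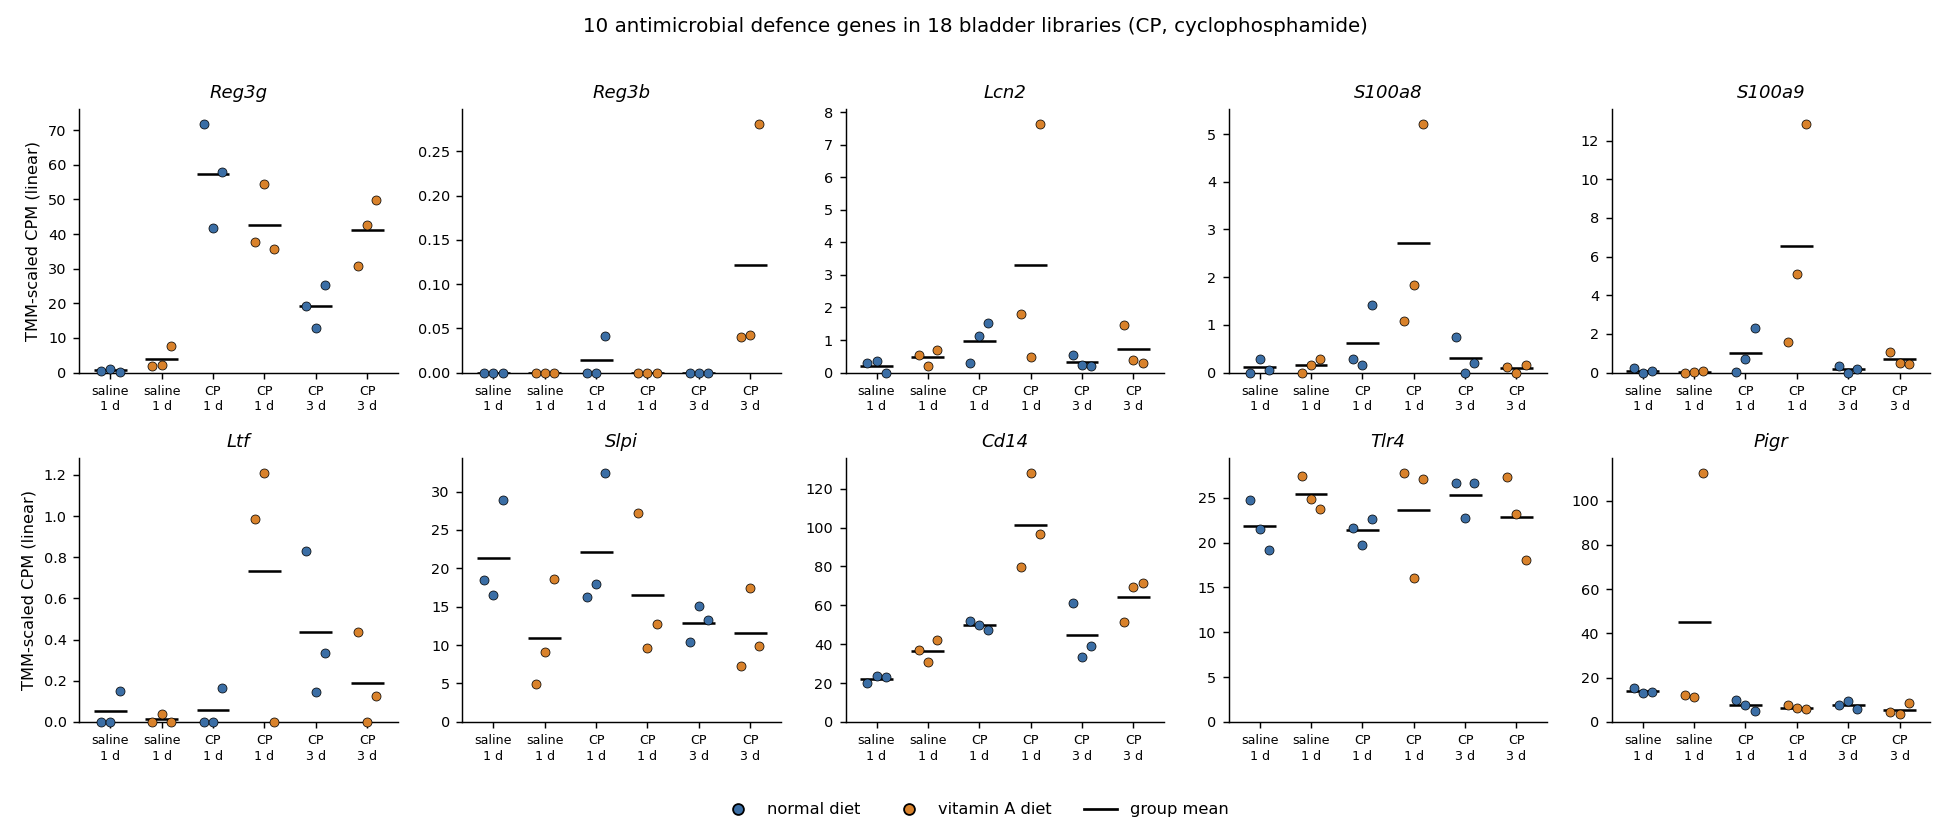
Each panel shows 1 gene, with TMM-scaled CPM on a linear axis that starts at 0 and the 6 groups along the bottom. Points are single mice (3 per group) and bars are group means. Reg3g lay between 0.272 and 7.69 CPM in saline libraries and between 12.8 and 71.9 CPM after cyclophosphamide, Tlr4 lay at 16.1 to 27.8 CPM throughout, and 1 saline vitamin A mouse had 113 CPM of Pigr.

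Reg3g had the widest fold range of group means among the 5 members with counts in every library (Reg3g, Slpi, Cd14, Tlr4 and Pigr). The ends of that range are the groups of the comparison that chose the list, so this rank is no independent result. In saline mice on the normal diet its libraries held 11, 24 and 9 counts (0.54, 1.17 and 0.27 CPM). Saline mice on vitamin A had 2.03, 2.06 and 7.69 CPM, all above the normal diet, as were 7.79% of all genes tested. At 1 day after cyclophosphamide the normal diet group had 71.9, 41.9 and 58.0 CPM and the vitamin A group 37.6, 54.5 and 35.6 CPM, which overlapped. At 3 days the normal diet group had 19.3, 12.8 and 25.4 CPM, and the vitamin A group 30.6, 42.6 and 49.9 CPM, without overlap, as for 2.85% of genes.

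In the order of mean CPM, the normal diet at 1 day (57.3 ± 15.03) came first, then vitamin A at 1 day (42.6 ± 10.4) and vitamin A at 3 days (41.1 ± 9.73). The normal diet at 3 days (19.2 ± 6.29) followed, and saline on vitamin A (3.93 ± 3.26) and saline on the normal diet (0.66 ± 0.46) were last. The first 3 groups of that order overlapped with their neighbours. Each of the others was separated from the next by a gap between libraries. On the normal diet the step from saline to 1 day was 6.52 on the log2 scale (SE 0.56), the value known when the list was made.

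On the vitamin A diet, whose libraries that choice did not use, Reg3g rose by 3.46 at 1 day (SE 0.45, 10.98-fold, edgeR quasi-likelihood test, adjusted p = 2.83e-05). Against the same saline mice it was 3.41 higher at 3 days (SE 0.45, 10.6-fold, adjusted p = 8.56e-05), and both comparisons share those 3 libraries. On the normal diet at 3 days it was 4.94 above saline (SE 0.54, 30.8-fold, adjusted p = 8.29e-06), a comparison that shares its saline libraries with the one that chose the list. All 6 fits without 1 library each kept each of these 3 calls.

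From 1 to 3 days Reg3g changed by -1.58 on the normal diet (SE 0.41, adjusted p = 0.0612) and by -0.05 on vitamin A (SE 0.40, adjusted p = 0.965). Neither passed, although a fit of only the 6 cyclophosphamide libraries on the normal diet put the first past the threshold (adjusted p = 0.00844). That first step starts from the 1 day libraries whose high Reg3g chose the list, which favours a fall, and so it is no independent result. The difference between the diets in that step, which holds the same libraries, was 1.53 (SE 0.57, adjusted p = 0.42).

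The diet difference in Reg3g, vitamin A over normal, was 2.64 in saline mice (SE 0.56, 6.23-fold, unadjusted p = 0.00016, adjusted p = 0.33). It was -0.43 at 1 day (SE 0.40, adjusted p = 0.771) and 1.10 at 3 days (SE 0.40, adjusted p = 0.994). None passed in edgeR. In saline mice DESeq2 did call it (log2 2.60, adjusted p = 0.0095), as did the authors' deposited table (log2 2.60, adjusted p = 0.00322). Without the third saline vitamin A library the saline difference was 1.74 (adjusted p = 0.973). In the authors' deposited table for 3 days the value was 1.11 (adjusted p = 0.339). The saline and 1 day differences use the normal diet libraries of the comparison that chose the list. The step after cyclophosphamide at 1 day was smaller on vitamin A than on the normal diet by 3.07 (SE 0.69). That difference contains the whole normal diet step known beforehand and is given with no test.

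Reg3b, the related gene of the same cluster, gave 12 counts in all, against 12074 for Reg3g. There were 0 counts in 14 libraries, and 9 of the 12 lay in the third vitamin A library at 3 days. The vitamin A group at 3 days held 11 counts, at least 4.32-fold more than the normal diet group at 3 days, which had 0 (floor of 3 counts over the group, or 0.0314 CPM). No test was possible after the filter, and how the authors' counting split reads between 2 similar genes is not given in the sources used here. Other Reg family genes fixed in the list of antimicrobial effectors were at or near 0, with 0 counts for Reg2, Reg3a and Reg3d, 8 for Reg1 and 10 for Reg4. Reg3g was the Reg gene with an appreciable level in these bladders.

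Among the genes that act upstream of Reg3g in other epithelia, the cytokine genes Il22, Il17a and Il17f gave 2, 4 and 12 counts over all libraries and could not be tested. The shared transcription factor gene Stat3 was at 145 ± 8.61 CPM in saline mice on the normal diet and 150 ± 0.87 CPM on vitamin A. It rose after cyclophosphamide on vitamin A at 1 day (247 ± 10.3 CPM, log2 0.71, adjusted p = 7.42e-05) and at 3 days (0.57, adjusted p = 0.00152), and on the normal diet at 3 days (0.54, adjusted p = 0.00187). Socs3, a feedback inhibitor that STAT3 induces, rose by 3.46, 2.75 and 1.67 in the same 3 comparisons (adjusted p = 7.21e-07, 1.12e-05 and 0.000658), and Lif, a cytokine of the interleukin-6 family, by 2.45, 1.52 and 2.59. The interleukin-22 receptor gene Il22ra1 fell by 1.66 at 3 days on the normal diet (SE 0.49, adjusted p = 0.0376) and was at -0.66 on vitamin A (adjusted p = 0.495). Il17ra, Il17rc and Nfkbiz, the gene of a nuclear cofactor of interleukin-17 signalling, passed in none of the 3. Beside the counts of list genes that follow, 10.2% of all tested genes rose and 9.05% fell at 1 day on vitamin A. At 3 days 6.74% rose and 3.3% fell on the normal diet, and 4.32% rose and 1.67% fell on vitamin A. Of 22 tested genes of the list of interleukin-17, interleukin-22 and STAT3 inputs, 7 rose and 1 fell at 1 day on vitamin A (median 0.35, against -0.012 over all tested genes). At 3 days 4 rose and 1 fell on the normal diet, and 5 rose on vitamin A. None of them passed with diet in any condition. The same list without the third saline vitamin A library, an alternative added after the data were seen, gave 5 that rose and 1 that fell of 23 at 1 day on vitamin A.

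The genes of the other antimicrobial effectors moved both ways. Of 21 tested, 4 rose and 6 fell at 1 day on vitamin A against saline (median 0.23), and without the third saline vitamin A library 2 rose and 4 fell. S100a14, an epithelial S100 gene, rose by 2.24 (adjusted p = 2.23e-05), and Lyz2, the lysozyme gene of macrophages, fell by 1.52 (adjusted p = 0.000108). Lyz2 then rose from 1 to 3 days on both diets (1.26 on the normal diet, adjusted p = 0.00635, and 1.94 on vitamin A, adjusted p = 0.000185). Defb1, an epithelial defensin gene, fell by 1.43 at 1 day on vitamin A (adjusted p = 0.00885) and by 1.17 at 3 days on the normal diet (adjusted p = 0.0486). With diet, 1 of the 21 passed, Rnase4, the gene of a secreted ribonuclease, which fell by 0.75 on vitamin A at 1 day (adjusted p = 0.0499). Pglyrp1, which encodes a peptidoglycan binding protein, rose by 3.00 at 3 days on the normal diet (0.36 ± 0.30 to 2.93 ± 0.31 CPM, adjusted p = 0.00399).

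Lcn2, whose product binds bacterial siderophores, passed in no comparison. Its libraries in saline mice had 0 to 7 counts on the normal diet and 5 to 18 on vitamin A. At 1 day after cyclophosphamide the normal diet libraries held 6, 28 and 37 counts, and the vitamin A libraries 38, 9 and 154. The highest value, 7.66 CPM, was in the vitamin A library with the highest adipocyte marker sum and mitochondrial share. Their part in it was not tested. The step from saline to 1 day on vitamin A was 2.77 (SE 1.02, adjusted p = 0.0653), which DESeq2 called (2.80, adjusted p = 0.0205). Slc22a17, which encodes a receptor for the LCN2 protein, fell in that comparison by 0.78 (SE 0.23, adjusted p = 0.0222).

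Ltf, the lactoferrin gene, was at 0 in 8 libraries. At 1 day on vitamin A its libraries held 21, 23 and 0 counts, against 0, 1 and 0 in saline mice on that diet, a ratio of group sums of 61.5 (exact 95% counting interval 10.5 to 2485). That interval leaves out the spread between mice. The fitted change did not pass (adjusted p = 0.0522), but did in DESeq2 (0.0245) and without the filter (0.0487). Ltf passed the filter on low counts only with the vitamin A libraries at 1 day, where it was high, so its rise is no support. The third vitamin A library, high in Lcn2, S100a8 and S100a9, had 0 counts of Ltf.

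Other genes of metal withholding were counted in the same way. At 1 day on vitamin A 7 of 15 rose and 2 fell (median 0.31), or 6 and 2 without the third saline vitamin A library, and at 3 days 3 rose on the normal diet and 4 on vitamin A. Hmox1, which encodes the haem-degrading enzyme, rose by 2.64 at 1 day (24.6 ± 4.27 to 154 ± 3.79 CPM, adjusted p = 2.43e-06). Hp, which encodes the haemoglobin binding protein haptoglobin, rose by 5.62 to 218 ± 218 CPM, a mean with an SD as large as itself (adjusted p = 0.00297). Lrp2, an endocytic receptor gene, fell by 1.95 (adjusted p = 0.00909).

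S100a8 and S100a9 were highest at 1 day after cyclophosphamide on vitamin A. S100a9 held 34, 97 and 259 counts there (1.598, 5.10 and 12.9 CPM), against 0, 1 and 2 counts in saline mice on that diet. The groups did not overlap, as for 19.2% of all genes in that direction, and the ratio of their sums was 182 (exact 95% counting interval 61.8 to 885, which leaves out the spread between mice). The fit put the rise past the threshold (SE 1.39, adjusted p = 0.00108) in all 6 fits without 1 library. S100a8 had 23, 35 and 105 counts against 0, 4 and 7, and its call (log2 4.19, SE 1.395, adjusted p = 0.0419) was kept in 1 of 6 such fits, the one without the first vitamin A library at 1 day, with adjusted p of 0.0616 to 0.165 in the others. S100a8 passed the filter on low counts only through the vitamin A libraries at 1 day, where it was high, so its rise is no support. On the normal diet at 1 day S100a9 had 1, 17 and 56 counts and S100a8 6, 4 and 34, overlapping the saline libraries.

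By 3 days both were low again. In the vitamin A group S100a9 had 27, 12 and 14 counts and S100a8 3, 0 and 5, all below the 1 day libraries, as for 7.85% of genes. The steps from 1 to 3 days, -3.27 for S100a9 (SE 1.04, adjusted p = 0.0805) and -4.76 for S100a8 (SE 1.45, adjusted p = 0.0685), did not pass in edgeR and did in DESeq2 (0.0222 and 0.0069). Since S100a8 passed the filter on low counts only through the vitamin A libraries at 1 day, a fall from there was favoured. Its step and its gap are therefore no support. Without the first vitamin A library at 1 day the S100a9 step passed (adjusted p = 0.0413). S100a9 stayed above saline on vitamin A in every library at 3 days, as did 10.9% of genes (ratio of sums 18.3, exact 95% counting interval 5.93 to 91.6), again not past the threshold in edgeR (adjusted p = 0.103) but past it in DESeq2 (0.0233). The diet differences at 1 day were 2.67 for S100a9 (SE 1.01, adjusted p = 0.293) and 2.12 for S100a8 (SE 1.24, adjusted p = 0.571).

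**Figure D2:**
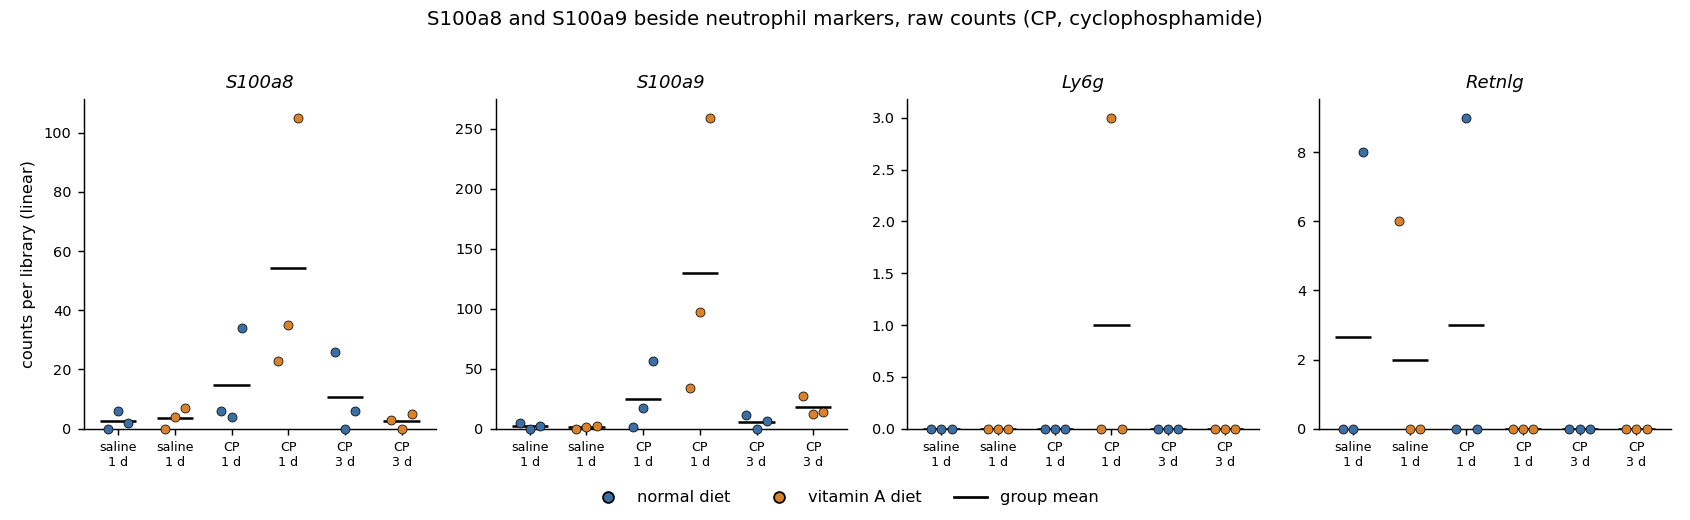
Raw counts per library of S100a8, S100a9 and the neutrophil markers Ly6g and Retnlg, on linear axes that start at 0, for 6 groups of 3 mice (points) with group means (bars). S100a9 reached 259 counts at 1 day on vitamin A, while Ly6g gave 3 counts in 1 library and 0 in the others.

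Neutrophil markers are given beside these genes. Of 13 tested at 1 day on vitamin A, 10 had a change above 0 (median 1.03), as had 9493 of all 19323 tested genes (median -0.012). At 1 day on the normal diet 8 of the 13 had a change above 0 (median 1.17), as had 9653 of all tested genes. Of the 21 on the list, Fcnb was at 0 in all libraries, Ms4a3 and Stfa2 had 1 count each, and Ly6g had 3 counts, all in 1 library. Retnlg gave 23 counts in 3 libraries, none of them at 1 day on vitamin A. The summed level of the list was 73.4 to 76.0 CPM at 1 day on vitamin A, 59.7 to 84.5 on the normal diet, and 48.5 to 60.3 over the saline libraries. Most of that sum was Padi4 and Mmp9. The 2 that rose at 1 day on vitamin A were Cxcr2 (4.14, adjusted p = 0.00337) and the leukotriene receptor gene Ltb4r1 (3.20, adjusted p = 0.000294). The part of neutrophils in the S100a8 and S100a9 values was not tested.

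Genes of the list drawn up around calprotectin receptors, which also held other S100 genes and an annexin gene, moved both ways. S100a11 rose in all 3 tested comparisons with saline, by 1.71 at 1 day on vitamin A (adjusted p = 2.05e-05), 0.98 at 3 days on the normal diet and 0.82 at 3 days on vitamin A. Anxa1, the gene of a calcium-dependent membrane protein, rose in each by 0.75, 0.56 and 0.64. Ager, which encodes the receptor RAGE, fell in each, by 2.27 (adjusted p = 0.00162), 1.58 and 1.94. Over the list of 11 genes, 2 rose and 2 fell at 1 day on vitamin A. Without the third saline vitamin A library S100a11 (0.74, adjusted p = 0.12) and Anxa1 (0.54, adjusted p = 0.157) no longer passed at 3 days on that diet, and 1 gene of the list fell at each time.

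Slpi, which protects epithelium from neutrophil elastase, passed in no comparison of the fit to all libraries. Its libraries ran from 16.6 to 28.9 CPM in saline mice on the normal diet and from 4.91 to 18.7 CPM on vitamin A. At 1 day after cyclophosphamide they ran from 16.2 to 32.4 CPM on the normal diet and from 9.68 to 27.2 CPM on vitamin A. At 3 days the ranges were 10.4 to 15.03 and 7.25 to 17.5 CPM. The normal diet libraries at 3 days lay below those at 1 day, as for 10.8% of genes, and below saline, as for 18% of genes, with changes of -0.78 from 1 day (SE 0.44, adjusted p = 0.563) and -0.73 from saline (SE 0.44, adjusted p = 0.35, or 0.0314 in a fit of those 6 libraries alone). The gene of its target, Elane, gave 5 counts over the 18 libraries.

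Some related antiprotease genes passed. The list of WAP domain, serpin and other protease inhibitors also held 3 neutrophil proteases, of which Prtn3 was tested (3.37 at 1 day on vitamin A, adjusted p = 0.0768). Of its 10 tested genes, 4 rose and 2 fell at 1 day on vitamin A, 4 rose and 1 fell at 3 days on the normal diet, and 2 rose at 3 days on vitamin A. Wfdc2, an epithelial WAP domain gene, rose by 1.73 at 1 day on vitamin A (314 ± 35.7 to 1040 ± 405 CPM, adjusted p = 0.000158) and fell by 0.97 from there to 3 days (adjusted p = 0.0448). Wfdc17 rose by 3.17 at 3 days on the normal diet (adjusted p = 1.08e-05) and by 3.10 on vitamin A (adjusted p = 2.26e-05). Serpina3n, an acute phase protease inhibitor gene, rose in all 3, by 3.09, 2.66 and 2.60. Wfdc15b fell by 1.96 at 1 day on vitamin A (adjusted p = 1.62e-05).

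Cd14, the co-receptor gene, ranged from 19.9 to 128 CPM. Saline mice had 19.9, 23.6 and 23.2 CPM on the normal diet and 36.8, 30.9 and 42.1 CPM on vitamin A. At 1 day the normal diet group had 52.1, 49.95 and 47.4 CPM and the vitamin A group 79.6, 128 and 96.9 CPM. At 3 days they had 61.5, 33.3 and 38.9 CPM, and 51.4, 69.3 and 71.7 CPM. Vitamin A libraries lay above normal diet libraries without overlap in saline (as for 7.79% of genes) and at 1 day (7.18%), and overlapped at 3 days.

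On vitamin A, Cd14 rose by 1.47 at 1 day (SE 0.21, 2.77-fold, adjusted p = 7.02e-05) and by 0.81 at 3 days (SE 0.21, adjusted p = 0.0245). The first call was kept in all 6 fits without 1 library and the second in 2 of 6, being lost without saline library 1 or 2 or library 2 or 3 at 3 days (adjusted p = 0.0594 to 0.135). On the normal diet it rose by 1.00 at 3 days (SE 0.21, adjusted p = 0.00442), kept in all 6. The step from saline to 1 day on the normal diet, in the comparison known beforehand, was 1.16 (SE 0.21). Cd14 was 1.03 higher on vitamin A than on the normal diet at 1 day (SE 0.21, 2.04-fold, adjusted p = 0.0352). That call was lost in 5 of 6 fits without 1 library (adjusted p up to 0.141) and in a fit of the 6 libraries compared alone (0.122). It was kept without the first vitamin A library. In saline mice the diet difference was 0.72 (adjusted p = 0.933) and at 3 days 0.53 (adjusted p = 0.994), against 0.72 (adjusted p = 0.00104) and 0.53 (0.999) in the authors' deposited tables. Their table for 1 day gives 1.03 for Cd14 (adjusted p = 1.6e-05).

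Tlr4, the gene of the signalling receptor, lay between 19.1 and 27.5 CPM in saline mice and between 16.1 and 27.8 CPM after cyclophosphamide. Its fitted change was between -0.15 and 0.25 in the 9 comparisons of 2 groups, with standard errors of about 0.19, and passed in none. Ly96, which encodes the MD-2 subunit that holds lipopolysaccharide on the TLR4 protein, had 4.36 to 5.93 CPM as group means, and its changes ran from 0.06 to 0.31 in the diet and tested saline comparisons, none past the threshold. Lbp, the gene of the serum protein that hands lipopolysaccharide to CD14, lay at 39.8 ± 1.98 CPM in saline mice on the normal diet and 26.0 ± 9.03 at 1 day. At 3 days it had 73.2 ± 26.3 CPM on the normal diet and 74.6 ± 41.3 CPM on vitamin A, not past the threshold.

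**Figure D3:**
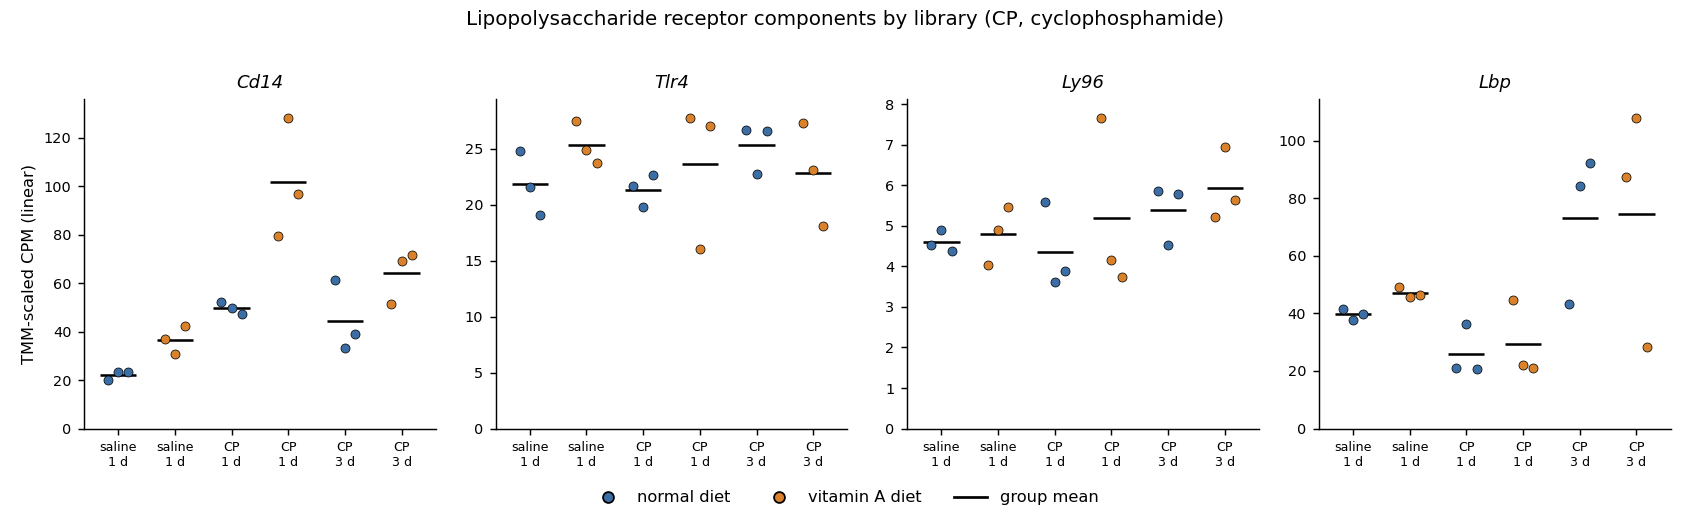
TMM-scaled CPM of Cd14, Tlr4, Ly96 and Lbp per library, on linear axes that start at 0, for 6 groups of 3 mice (points) with group means (bars). Cd14 spans 19.9 to 128 CPM, while Tlr4 stays between 16.1 and 27.8 CPM.

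Of 22 tested genes for lipopolysaccharide sensing and Toll-like receptors, 2 rose and 2 fell at 1 day on vitamin A against saline, shares close to those of all genes. At 3 days 5 rose on the normal diet, and 1 rose and 1 fell on vitamin A. Tlr13, a receptor gene for bacterial ribosomal RNA, rose by 2.31 at 3 days on the normal diet (adjusted p = 0.000777). Clec4d, a C-type lectin receptor gene of myeloid cells, rose by 3.03 at 1 day on vitamin A (adjusted p = 0.00273), and Clec7a, which encodes the glucan receptor Dectin-1, fell by 2.72 (adjusted p = 0.00222). Among 20 adaptors and inhibitors, 6 rose at 1 day on vitamin A and 2 at 3 days on the normal diet. At 3 days on vitamin A 1 rose. Myd88, the adaptor gene shared by most Toll-like receptors, rose in all 3 (0.78, 0.44 and 0.48, adjusted p = 0.000289, 0.0364 and 0.0306), the last not past the threshold without the third saline vitamin A library (0.177). Ticam1, the adaptor gene of the second TLR4 pathway, was at 0.45, 0.03 and 0.48 (adjusted p = 0.05, 0.943 and 0.0759). Monocytes and macrophages are known to express Cd14, and their markers, without Cd14, summed to 403 to 680 CPM in saline libraries, 383 to 691 at 1 day and 626 to 1090 at 3 days. At 1 day that sum was 383 to 612 CPM on vitamin A and 572 to 691 CPM on the normal diet. Of the 20 markers 6 rose and 3 fell at 1 day on vitamin A against saline (median 0.70), 12 rose at 3 days on the normal diet and 9 at 3 days on vitamin A. Their part in the Cd14 level was not tested.

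Pigr was lower after cyclophosphamide than after saline on both diets and at both times, with no overlap of libraries in any of the 4 comparisons. Such gaps downward were common among all genes tested, at 18.6% on the normal diet and 19.6% on vitamin A at 1 day, and 18% and 10.2% at 3 days. Saline mice on the normal diet had 15.1, 13.3 and 13.3 CPM. Those on vitamin A had 12.1, 11.4 and 113 CPM, so 1 library lay far above the others of its group. After cyclophosphamide the libraries ran from 4.93 to 9.73 CPM on the normal diet at 1 day and from 5.72 to 7.43 on vitamin A. At 3 days they ran from 5.98 to 9.30 and from 3.54 to 8.45 CPM.

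The test called Pigr lower on vitamin A at 1 day (log2 -2.82, SE 0.65, adjusted p = 0.00512) and at 3 days (-3.05, SE 0.66, adjusted p = 0.00774). Both values turn on the saline library with 113 CPM. Without it the changes were -0.89 (SE 0.33, adjusted p = 0.0852) and -1.13 (SE 0.33, adjusted p = 0.0661), and the second call was also lost without the second vitamin A library at 3 days (adjusted p = 0.0665). In fits of only the 6 libraries compared neither passed (adjusted p = 0.0906 and 0.134). On the normal diet the change was -0.86 at 3 days (SE 0.62, adjusted p = 0.442), which passed in a fit of the 6 libraries compared alone (adjusted p = 0.00886), and -0.90 at 1 day in the comparison known beforehand. The diet difference in saline mice was 1.71 with that library (adjusted p = 1) and -0.22 without it.

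The same saline vitamin A library was also the highest of its group in transcripts of immunoglobulin A. Igha, the heavy chain gene, had 12.3 CPM there, against 0.79 and 0.32 CPM in the other 2 and 0 to 2.05 CPM in all remaining libraries. Jchain, which joins immunoglobulin A into the dimers that the PIGR protein carries, had 4.46 CPM against 0.09 and 1.03 CPM. Reg3g was highest there too, at 7.69 CPM. The part of immune tissue in the Pigr value of that library was not tested. Igha fell at 1 day on vitamin A with this library (-4.01, adjusted p = 0.0428) and was at -1.03 without it (adjusted p = 0.665). Of 13 tested genes of immunoglobulin transport and plasma cells, 1 rose and 2 fell at 1 day on vitamin A. Without that library 0 rose and 1 fell of 14. At 3 days none passed.

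**Figure D4:**
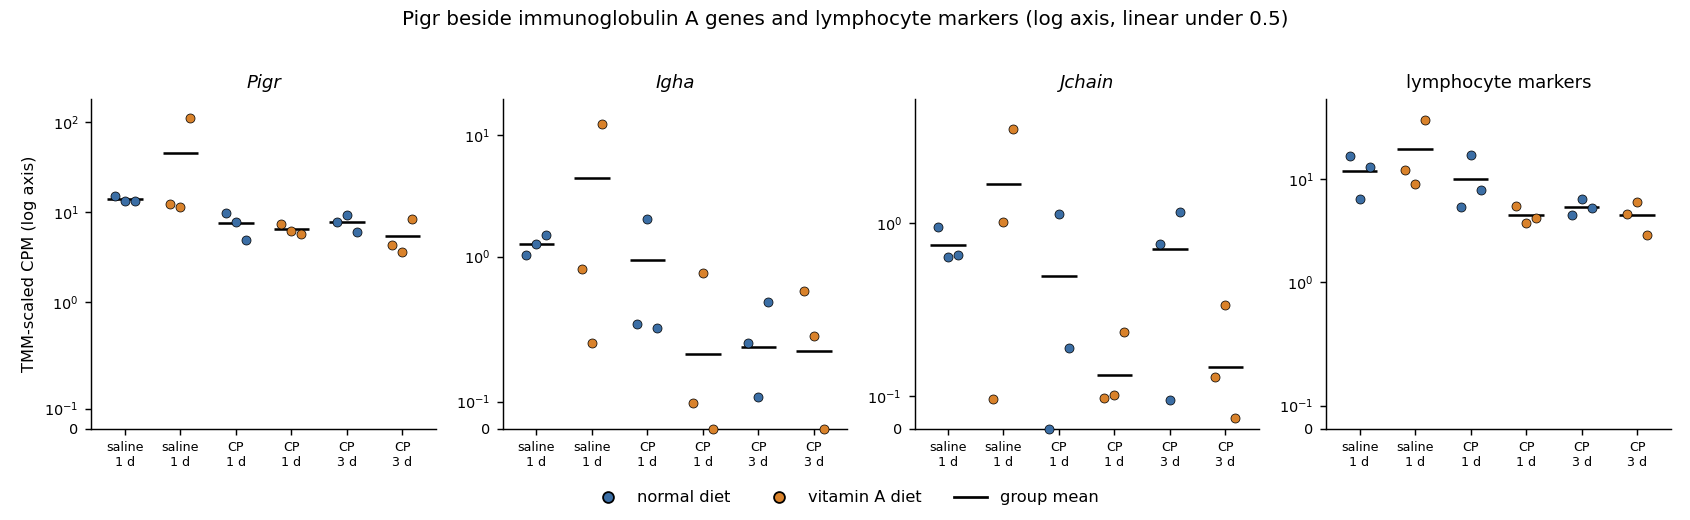
TMM-scaled CPM of Pigr, Igha and Jchain and the summed CPM of the lymphocyte markers found among the named genes per library, on a log axis that is linear under 0.5, for 6 groups of 3 mice (points) with group means (bars). The third saline vitamin A mouse is the highest of the 18 in all 4 panels, with 113 CPM of Pigr.

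The members past the threshold are counted here beside the shares of all genes called. Against saline, 4 of 9 tested members rose at 1 day on vitamin A (Reg3g, S100a8, S100a9 and Cd14), where 10.2% of all genes rose, and 1 fell (Pigr), where 9.05% fell. Without the third saline vitamin A library 3 passed there, Pigr and S100a8 being lost. S100a8 passed the filter on low counts only through the vitamin A libraries at 1 day, so its place in this count is no support. At 3 days 2 rose on the normal diet (Reg3g and Cd14), where 6.74% of genes rose and 0 members fell. The Reg3g call shares its saline libraries with the comparison that chose the list, so it is no independent result. At 3 days on vitamin A 2 rose (the same pair), where 4.32% of genes rose, and 1 fell (Pigr), where 1.67% fell. Without the second vitamin A library at 3 days 1 member passed there. In the comparison known beforehand, 1 day on the normal diet, 11.8% of all genes passed, and no count of members is read. The median change of the 9 was 2.77, 0.79 and 0.55 in the 3 tested comparisons, against -0.012, -0.00043 and 0.011 over all tested genes. Since members that passed the filter only where they are high had to differ, these medians are no support.

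With diet, 0 members passed in saline mice in edgeR, where 0.0104% of genes did (2 genes, with 730 at an unadjusted p under 0.05), 1 at 1 day (Cd14), where 0.466% did, and 0 at 3 days, where 0.00518% did (1 gene, with 727 at an unadjusted p under 0.05). DESeq2 called 1 member in saline mice and 0 at 3 days. Reg3g and Cd14 were higher on vitamin A in every saline library, a gap that 7.79% of genes showed, and Reg3g and S100a9 in every library at 3 days, which 2.85% of genes showed. From 1 to 3 days 0 members passed on the normal diet, where 1.44% of genes did, and 0 on vitamin A, where 4.24% did. At an unadjusted p under 0.05 there were 2184 and 3736 genes, and DESeq2 called 0 and 3 members. Without passing, Reg3g and Slpi were lower at 3 days with no overlap on the normal diet (10.8% of genes), and S100a8, S100a9 and Cd14 on vitamin A (7.85%). The Reg3g gaps in saline mice and from 1 to 3 days on the normal diet use libraries of the comparison that chose the list. S100a8 passed the filter only through the vitamin A libraries at 1 day. Its gap and its DESeq2 call from there to 3 days are therefore no support. Tlr4 was higher at 3 days with no overlap on the normal diet, at 22.8 to 26.7 against 19.8 to 22.7 CPM (11.9% of genes). The interactions of diet with cyclophosphamide and with time passed for 0 genes in edgeR, with 1505 and 1732 genes at an unadjusted p under 0.05. Among the members other than Reg3g, DESeq2 called none in either, and it gave Pigr no adjusted p.

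**Figure D5:**
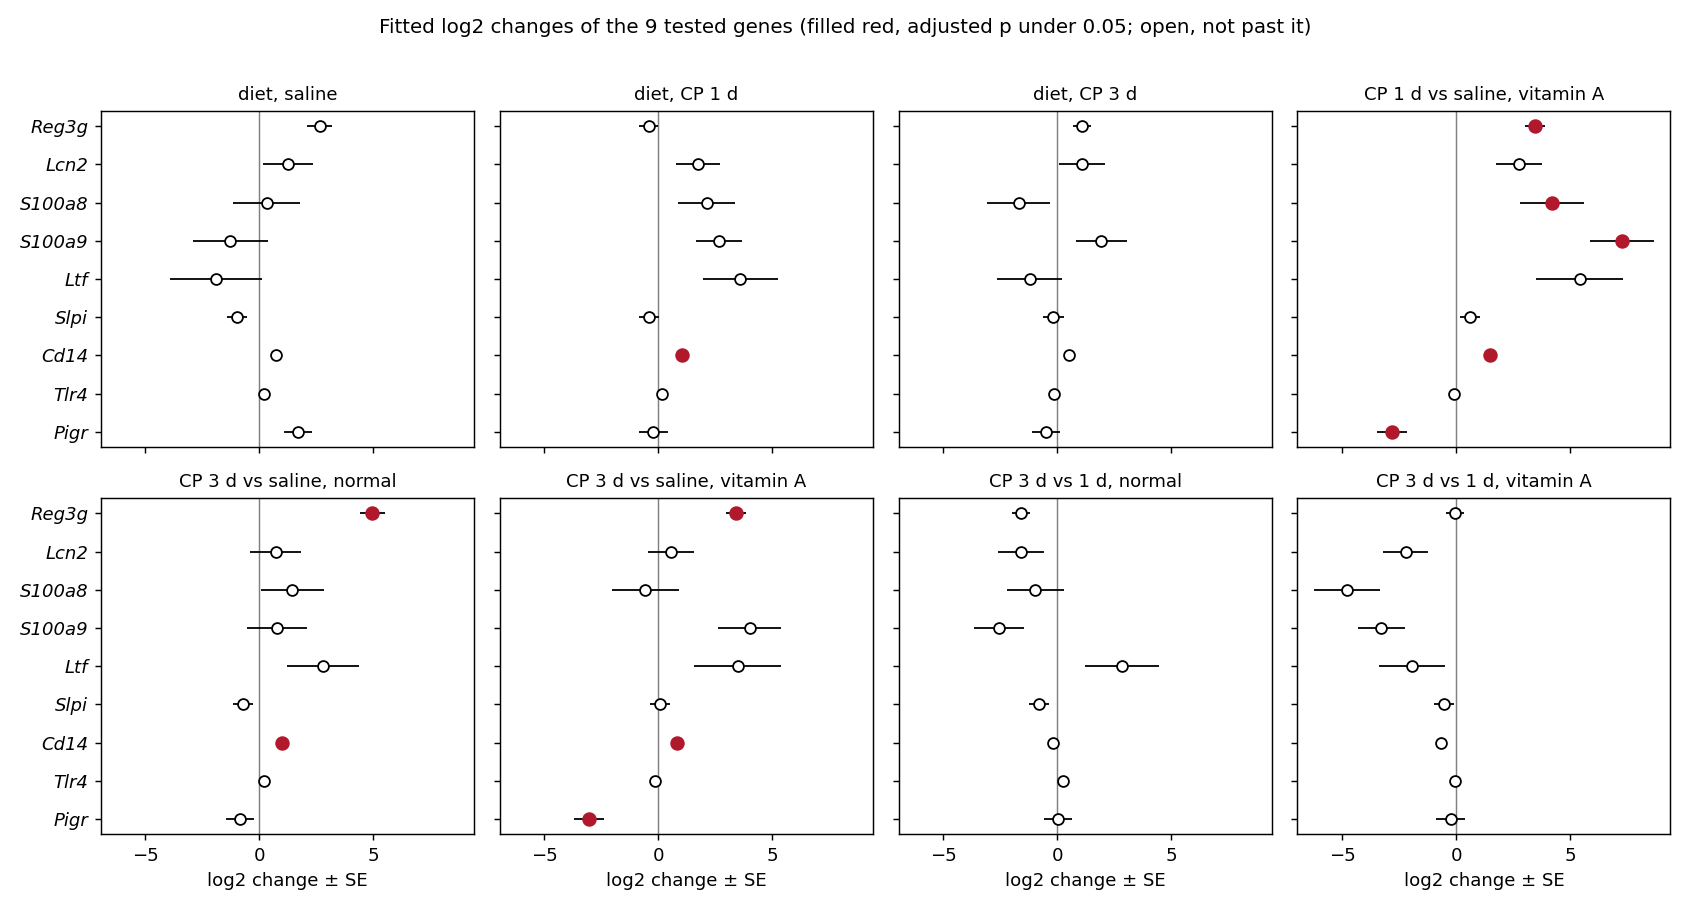
Fitted log2 changes with standard errors for the 9 tested members in 8 comparisons (one panel each, shared axis). Filled red points passed the threshold of 0.05 on the adjusted p. Reg3g and Cd14 are red in the 3 comparisons of cyclophosphamide with saline, and Cd14 alone is red in the panel for diet at 1 day.

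Across the 18 libraries the genes outside the panel most like Reg3g, by Pearson's r of log2 CPM, were Capn13 (0.95), Ccl7 (0.95), Ccdc148 (0.93), Msr1 (0.93) and Dscc1 (0.93). Msr1 encodes a macrophage scavenger receptor and Ccl7 a monocyte chemokine, which went from 0.66 ± 0.45 to 12.3 ± 5.10 CPM between saline and 1 day on the normal diet. For Lcn2 the closest were Pck1 (0.83), Mrap (0.83), Gpat3, Syt12 and Gpd1. Pck1, Gpd1 and Mrap are known from fat cells, and the adipocyte marker sum was highest in the library with the most Lcn2. Pigr was closest to Pfkfb4 (0.83), Gm11127, Faah, Clca3a2 and Etv3, and Tlr4 to Car3 (0.79), Vat1l, Lpl, Cyp4b1 and Abcd2, of which Car3 and Lpl are abundant in fat. These correlations describe libraries that share treatment groups and carry no test. Among the members, r was 0.82 between Reg3g and Cd14, 0.75 between S100a8 and S100a9 and -0.48 between Reg3g and Pigr.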

How the data were processed

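RNA was sequenced from 18 bladders, and the groups were read from the sample titles. Named in the submitters' processing notes are HISAT2 2.0.5 (an aligner), featureCounts 1.5.0-p3 (a read counter), DESeq2 1.20.0 and the build GRCm39. Neither strand settings nor the treatment of multimapping reads is stated there. The authors deposited whole-number counts per gene and FPKM values per gene. The authors' deposited tables of the diet comparisons give log2 ratios of normal over vitamin A, printed here with the sign turned, and p-values, and list features with an unadjusted p under 0.05. Unnamed features (0.474% to 0.81% of counts) were left out.

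Counts were fitted with edgeR 4.0.16 in R 4.3.3 by its robust quasi-likelihood test. Library sizes were TMM-scaled, and the model held all 18 libraries with a mean for each group, 12 residual degrees of freedom and 2-sided tests. P-values were adjusted (Benjamini-Hochberg) over 19323 genes per comparison, with a threshold of 0.05. The fit was checked on simulated data. The filter was edgeR's filterByExpr. Depth was 19554132 to 34598952 counts, and intervals and floors cover counting error only, not the spread between mice. Alternatives were RLE and upper-quartile scaling, DESeq2 1.42.0, no filter, unnamed features kept, a replicate block, single libraries left out, and fits of only the libraries compared. List counts without the third saline vitamin A library were added after the data were seen.

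The members and the 22 gene lists were chosen with earlier results of these data known. Named genes were all members, fixed partners, and up to 3 genes each way with the smallest adjusted p per pathway list and comparison. Cxcr2, Ltb4r1 and other marker genes were named after their values were seen. Marker lists covered neutrophils, monocytes and macrophages, lymphocytes, 2 layers of urothelium, smooth muscle, fibroblasts, endothelium, adipocytes, red blood cells and other epithelia.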

Additional observations from a re-analysis of the deposited data

How the results depend on the processing

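Under RLE and upper-quartile scaling in edgeR and with unnamed features kept, the counts of members past the threshold were within 1.5 times the main counts in all 11 comparisons. DESeq2 called 1 member in saline mice with diet (Reg3g, against 0), 3 from 1 to 3 days on vitamin A (S100a8, S100a9 and Cd14, against 0) and 1 in the interaction of diet with cyclophosphamide (Reg3g, against 0, from which nothing is read because it contains the step known beforehand), and it gave Pigr no adjusted p. Fits of only the libraries compared gave 0 members for diet at 1 day (against 1), 1 from 1 to 3 days on the normal diet (against 0), 4 at 3 days against saline on the normal diet (against 2) and 1 on vitamin A (against 3). The cause was not tested. From the DESeq2 call of S100a8 nothing is read either, since S100a8 passed the filter only through the vitamin A libraries at 1 day.

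No pairing by replicate number was seen. Same-numbered libraries of different groups deviated together with r from -0.12 to 0.20 (mean -0.0024). For different-numbered libraries r ran from -0.17 to 0.21 (mean 0.0012). These values cannot exclude a pairing. With a replicate block, 0 members passed for diet at 1 day, Cd14 being lost at an adjusted p of 0.0613, and S100a8 was lost at 1 day against saline on vitamin A (0.0519).

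Without 1 library, members past the threshold numbered 0 to 1 for diet at 1 day, 3 to 5 at 1 day against saline on vitamin A, 0 to 2 from 1 to 3 days on vitamin A and 1 to 3 at 3 days against saline on vitamin A. Values that changed sign in such fits had not passed the threshold. On the log2 scale they ranged, for diet in saline mice, from -3.70 to 1.82 for Ltf, -0.22 to 2.16 for Pigr, -0.57 to 1.89 for S100a8 and -2.19 to 0.053 for S100a9. For diet they ranged from -0.45 to 0.016 for Pigr at 1 day and from -0.60 to 0.077 for Slpi at 3 days. From 1 to 3 days on the normal diet they were -0.46 to 0.009998 for Cd14, -0.19 to 0.27 for Pigr and -2.61 to 0.49 for S100a8, and on vitamin A -0.22 to 0.17 for Reg3g, -0.96 to 0.035 for Slpi and -0.26 to 0.093 for Tlr4. Against saline they were -0.24 to 0.11 for Tlr4 at 1 day on vitamin A. At 3 days they were -0.21 to 3.00 for S100a8 and -0.013 to 2.12 for S100a9 on the normal diet, and -0.54 to 0.94 for Lcn2, -1.19 to 0.33 for S100a8 and -0.35 to 0.70 for Slpi on vitamin A. In the interaction of diet with cyclophosphamide they were -1.04 to 1.14 for Lcn2, -2.38 to 0.0017 for Pigr, -0.013 to 1.17 for Slpi and -0.21 to 0.14 for Tlr4. In that of diet with time they were -1.73 to 0.90 for Lcn2, -2.17 to 0.23 for S100a9 and -0.17 to 0.82 for Slpi. Few counts limit Lcn2, S100a8, S100a9 and Ltf.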
